A study of Rattus norvegicus with 6 samples.

Results

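The COUP-TF nuclear receptors Nr2f1 (COUP-TFI), Nr2f2 (COUP-TFII) and Nr2f6 (EAR2) were examined in rat embryos exposed to an excess of retinoic acid. The cells were sorted and are neuroepithelial by their label. The 3 genes were taken by gene symbol from the deposited array table. Each of the 3 symbols had 1 row among the 20258 rows that carry a symbol, which stand for 19634 symbols in all, so no further rows of these genes remained to be reported. There were 3 samples of rat embryos at stage E10.5 from dams gavaged with all-trans retinoic acid at 60 mg/kg in olive oil and 3 from dams gavaged with the oil alone. Each sample is a pool, all were flow sorted and labelled as neuroepithelial progenitor cells, and the sources used here name neither the strain nor the sorting gate nor the time from dosing to collection. Separate ERCC spike-in mixes went into each group, mix 2 into the retinoic acid pools and mix 1 into the control pools, so mix and treatment cannot be told apart.

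COUP-TFs are orphan receptors of the nuclear receptor NR2 family that bind direct repeats of the hormone half-site as homodimers or with retinoid X receptors, and mostly repress transcription. They can occupy elements that retinoic acid receptors use, and COUP-TF genes are themselves known to respond to retinoic acid in cultured embryonal carcinoma cells. In mouse, Nr2f1 patterns the neocortex and guides neuron migration, Nr2f2 is needed for venous identity, atrial heart development and mesenchyme of many organs, and Nr2f6 is needed for the locus coeruleus and acts in T cells. The study's title names COUP-TFII, and the comparison asks whether transcripts of the family differed between exposed and vehicle pools.

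None of the 3 genes passed the test, an adjusted p under 0.05 in limma with Benjamini-Hochberg adjustment over all tested rows, which 9.75% of the rows passed. Of the values, 2 lay below the control and 1 above it: the log2 difference was -0.21 for Nr2f1, -0.09 for Nr2f2 and 0.19 for Nr2f6. At an unadjusted p under 0.05 there were 2 of the 3, Nr2f1 and Nr2f6, a level that 22.0% of all rows reached. By the authors' deposited table none of the 3 had an adjusted p under 0.05 either, with 0.159 for Nr2f1, 0.535 for Nr2f2 and 0.264 for Nr2f6.

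The promoters of Nr2f1 and Nr2f6 are shown because they are the start regions in which letters bound by retinoid receptors and COUP-TFs were sought. They come from the RefSeq table of assembly GRCr8, which held 2 of the 3 genes, and each runs from 250 bases before the gene start to 50 bases after it, 5′ to 3′ on the gene's own strand. Capitals mark GC boxes (GGGCGG on either strand), the letters bound by Sp1, through which COUP-TFs can act without a site of their own.
Nr2f1, GRCr8, chr2:9785875-9786174, minus strand: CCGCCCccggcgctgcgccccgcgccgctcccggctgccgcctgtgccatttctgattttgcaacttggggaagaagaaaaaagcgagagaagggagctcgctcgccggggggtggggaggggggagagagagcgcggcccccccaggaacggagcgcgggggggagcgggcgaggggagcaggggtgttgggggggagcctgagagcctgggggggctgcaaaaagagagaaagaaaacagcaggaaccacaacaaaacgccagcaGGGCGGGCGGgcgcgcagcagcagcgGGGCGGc
Nr2f6, GRCr8, chr16:18087400-18087699, minus strand: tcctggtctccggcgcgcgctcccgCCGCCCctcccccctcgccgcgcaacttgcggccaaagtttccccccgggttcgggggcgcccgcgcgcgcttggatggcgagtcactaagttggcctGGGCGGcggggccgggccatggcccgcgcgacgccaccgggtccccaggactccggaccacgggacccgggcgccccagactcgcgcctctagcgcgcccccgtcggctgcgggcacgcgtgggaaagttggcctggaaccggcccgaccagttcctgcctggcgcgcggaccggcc
The Nr2f1 window held 3 GC boxes on the forward strand, all within the first 50 transcribed bases and the first pair of them overlapping, and 1 on the reverse strand at its far end. The Nr2f6 window held 1 on each strand, both before the gene start. GC boxes occurred in 33.1% of 33469 promoters of the same length. Both windows were rich in G and C, at 70.3% in Nr2f1 and 77.3% in Nr2f6, against a median of 51.7% over all promoters. Neither window held the half-site AGGTCA (in 16.2% of promoters) or the variant AGTTCA (in 14.5%) on either strand. Direct repeats of AGGTCA spaced by 1, 2 or 5 bases, each found in under 20 promoters, were thereby absent too. Repeats with other letters were not sought. These matches are a description of the letters in the windows only.

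Nr2f1 encodes COUP-TFI, and its row lies on chromosome 2, 5765399 to 5794104, minus strand, by the file's coordinates, for which no genome build is named. Its log2 expression was 7.96, 8.08 and 8.15 in retinoic acid pools 1 to 3, against 8.16, 8.40 and 8.25 in control pools 1 to 3. The groups did not overlap, but only just: retinoic acid pool 3 lay 0.0066 below control pool 1, and groups did not overlap in 26.0% of all rows (lower in 6.95%, higher in 19.0%). The means were 8.06 ± 0.097 in retinoic acid and 8.27 ± 0.12 in control (SD, n = 3 each). The difference of -0.21 ± 0.078 (SE) had an adjusted p of 0.114 in limma, and its 95% interval of -0.37 to -0.04 runs from a 1.29-fold to a 1.03-fold lower level. A smaller absolute difference was found in 86.7% of the rows. Nr2f1 was called lower under a single setting, with the fit and its adjustment run over brighter rows alone, those above the median level (adjusted p = 0.0483 in limma). The adjusted p ran from 0.0483 to 1 over all settings. In a bulk pool, fewer cells that make a transcript and less of it per cell cannot be told apart.

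Nr2f2 encodes COUP-TFII, the family member named in the title (chromosome 1, 125280974 to 125293051, minus strand, in the file). Its log2 expression was 9.29, 9.37 and 9.41 in the retinoic acid pools, against 9.40, 9.52 and 9.42 in the control pools. The groups overlapped, but only just: retinoic acid pool 3 (9.408) lay above control pool 1 (9.404). The means were 9.36 ± 0.061 and 9.45 ± 0.066 (SD, n = 3 each) in retinoic acid and control. The difference was -0.09 ± 0.069 (SE, adjusted p = 0.501 in limma), and 56.7% of all rows had a smaller one. This was also the tightest of the 3 rows, with a within-group SD of 0.064 that exceeded that of 25.6% of the rows. Its 95% interval of -0.24 to 0.05 spans a 1.18-fold lower to a 1.04-fold higher level. The size depended on the scaling: the difference was -0.17 after quantile normalization (adjusted p = 0.105) and -0.19 after cyclic loess (adjusted p = 0.078), which adjust for level. It was smaller without retinoic acid replicate 1 (-0.06) or control replicate 2 (-0.05).

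Nr2f6 encodes EAR2, the more distant member (chromosome 16, 18535181 to 18542627, minus strand, in the file). Its log2 expression was 8.59, 8.34 and 8.41 in the retinoic acid pools, against 8.09, 8.36 and 8.32 in the control pools. Retinoic acid pool 1 was the highest of the 6 and control pool 1 the lowest, and the other 4 lay within a narrow band in which the groups overlapped. The means were 8.45 ± 0.13 and 8.26 ± 0.14 (SD, n = 3 each) in retinoic acid and control. The difference was 0.19 ± 0.084 (SE, adjusted p = 0.199 in limma; 95% interval 0.01 to 0.36). It rested in large part on these pools: it was 0.11 without retinoic acid replicate 1 and 0.10 without control replicate 1. The within-group SD of 0.138 exceeded that of 89.7% of all rows. With array weights, which gave control pool 1 the most weight, the difference was 0.26 (adjusted p = 0.0504).

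**Figure D1:**
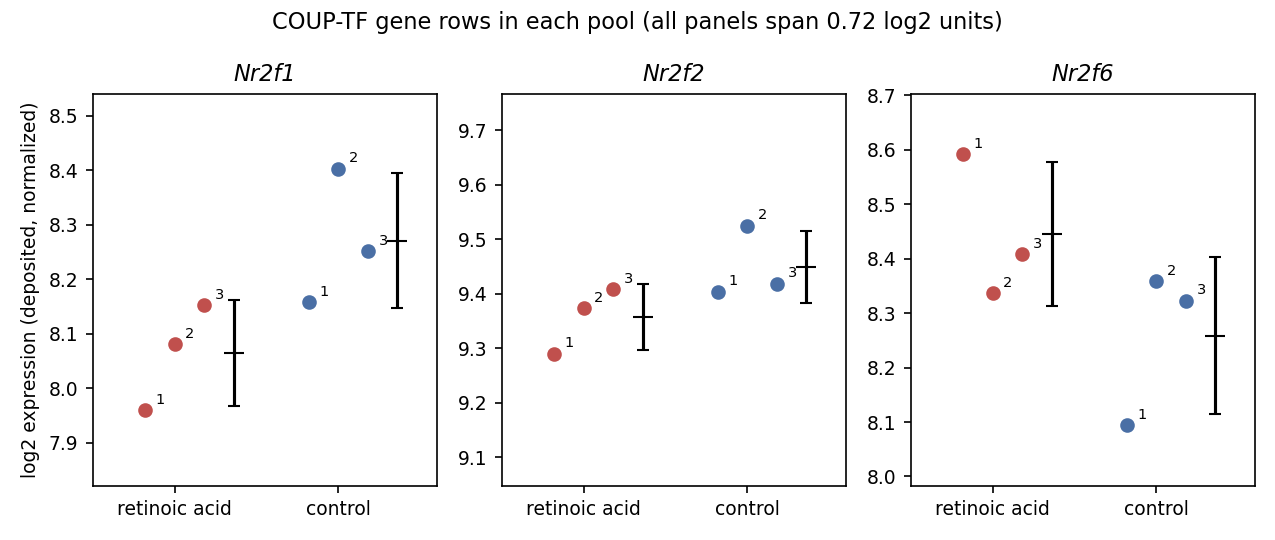
Deposited log2 expression of Nr2f1, Nr2f2 and Nr2f6 in each pool (numbered points, retinoic acid left of control), with the group mean and SD beside the points (n = 3 each). Groups touch without overlapping for Nr2f1 (8.15 against 8.16 at the nearest), and overlap only just for Nr2f2 (9.408 against 9.404) and also for Nr2f6.

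Nr2f1 and Nr2f2 ordered the pools almost alike. In both, retinoic acid pool 1 was the lowest and control pool 2 the highest of the 6, and the order of the pools within each group was the same in both genes. Nr2f6 went another way, since its highest value was in retinoic acid pool 1. Of the 17 settings tried, 6 leave the difference as it is by construction. Among these, the series matrix values and the mean of all rows of a symbol repeat the reported fit and could not change the p. The rest of the 6 bear on the p alone. In the other 11, which rescale or weight the pools or leave one out, the sign of each gene stayed the same.

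**Figure D2:**
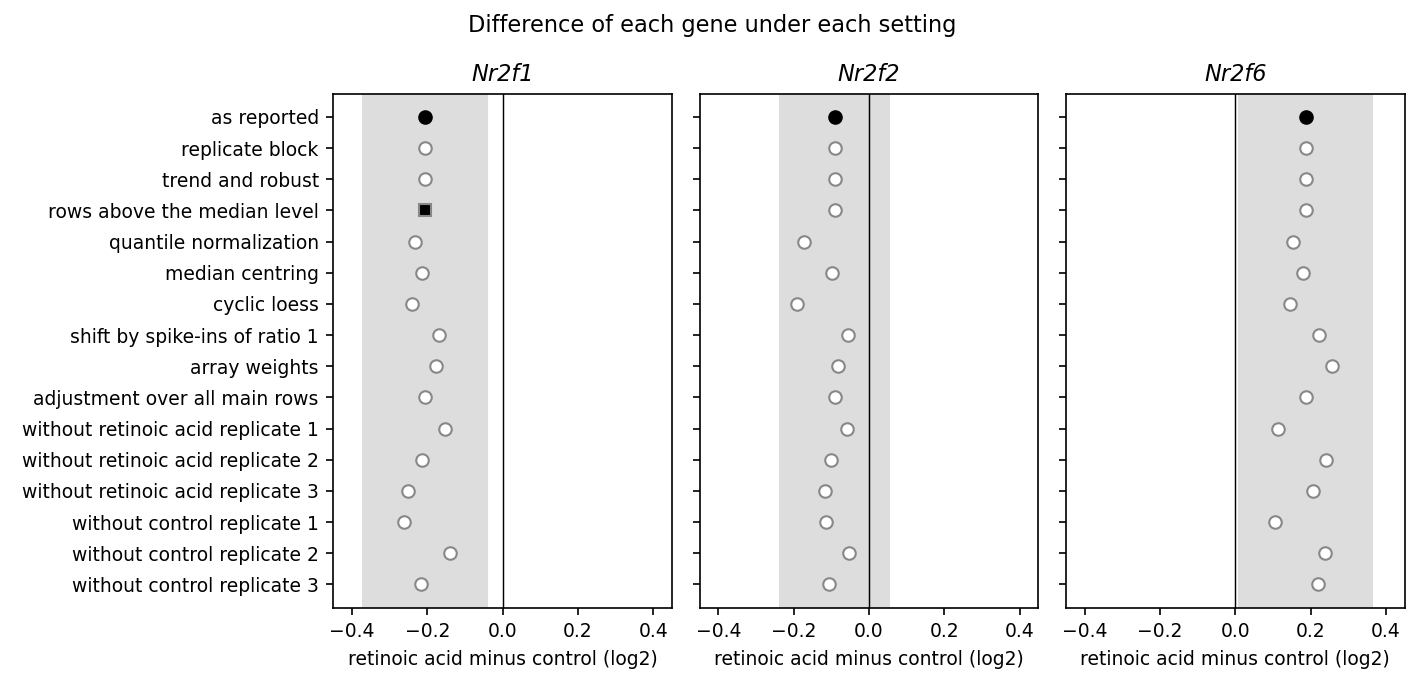
Log2 difference, retinoic acid minus control, of each gene under each setting (points), with the 95% interval of the reported fit as a grey band. The only square, Nr2f1 with the fit and adjustment over rows above the median level, marks an adjusted p under 0.05, and no point crosses 0.

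Whether the members changed unequally was tested on the gap between 2 rows within each pool. A gap between rows says nothing of the relative amounts of 2 transcripts, but its change between groups measures how unequally the 2 rows changed. The log2 value of Nr2f1 minus that of Nr2f6 was -0.63, -0.26 and -0.26 in the retinoic acid pools, against 0.06, 0.04 and -0.07 in the control pools. The difference of the changes was -0.39 ± 0.13 (SE, for gaps from the group SDs alone and not limma's), the widest of the 3 pairs. For Nr2f2 minus Nr2f6 it was -0.28 ± 0.12 (SE), and for Nr2f1 minus Nr2f2 it was -0.12 ± 0.042 (SE), but -0.061 after quantile normalization and -0.050 after cyclic loess, where the exact permutation test gave p = 0.4 and 0.5. In the deposited values the gaps of each of the 3 pairs did not overlap between the groups, as in 26.7% of all pairs of tested rows. There the two-sided exact permutation test gave p = 0.1 for every pair, also after adjustment over the 3 pairs, which is the smallest p that 3 pools against 3 allow. With that limit the test cannot decide whether the members changed unequally. The 3 gaps are drawn from the same 3 rows, so they are not separate results. The Nr2f2 and Nr2f6 difference was -0.17 without retinoic acid replicate 1. The array annotation marks no row as cross-hybridizing and probe letters were not used here, so whether probes of one receptor read another was not tested.

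**Figure D3:**
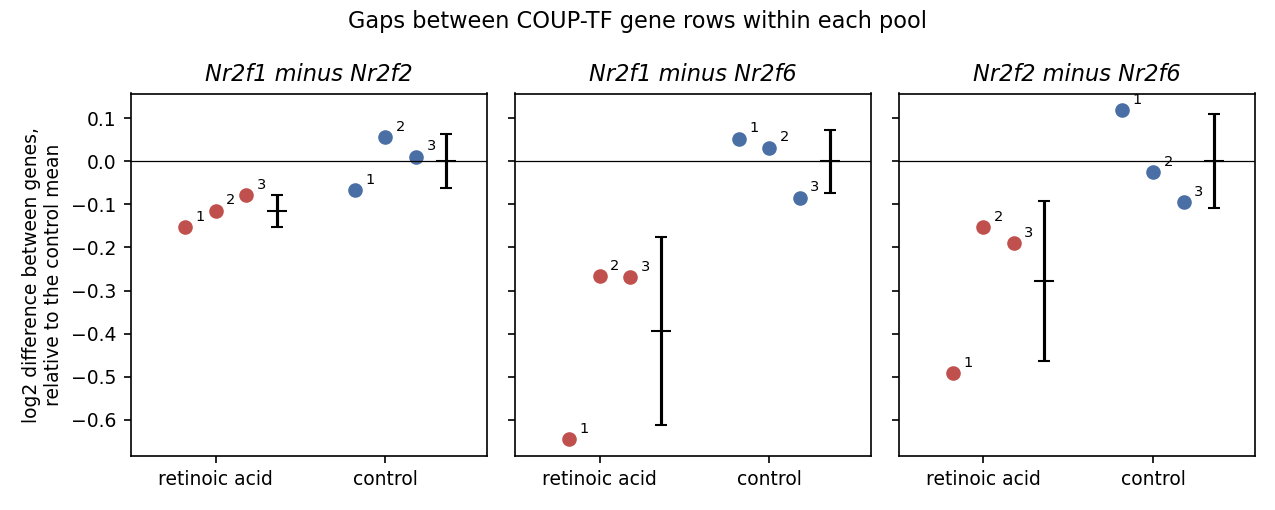
Log2 difference between the rows of 2 COUP-TF genes within each pool, relative to the control mean of that difference (numbered points, retinoic acid left of control; bars, mean and SD). In all 3 panels the retinoic acid pools lie below every control pool, least so for Nr2f1 minus Nr2f2 (-0.12) and most for Nr2f1 minus Nr2f6 (-0.39).

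Of 7 measured relatives, other NR2 receptors and the retinoid X receptors with which COUP-TFs can pair, none passed the test in limma in either direction. None had an unadjusted p under 0.05 either. By comparison, 9.75% of all rows passed the test and 22.0% had an unadjusted p under 0.05. The median log2 difference of the relatives was 0.0049, against 0.03 over all tested rows. Rxra, a partner of retinoic acid receptors as well as of COUP-TFs, had the smallest p. It stood at 8.76 ± 0.010 in retinoic acid and 8.61 ± 0.10 in control (SD, n = 3 each), a difference of 0.14 ± 0.070 (SE, adjusted p = 0.259) that was 0.083 without control replicate 1. Hnf4a, a receptor of liver and visceral endoderm that competes with COUP-TFs for direct repeats, was at -0.13 ± 0.078 (SE, adjusted p = 0.395), and at -0.071 without retinoic acid replicate 2.

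Of 17 measured cofactors, 2 rose and none fell, with a median of 0.02, where 7.69% of all rows were called higher and 2.06% lower. Rcor2, a corepressor of the CoREST family, was at 10.25 ± 0.058 in retinoic acid and 9.93 ± 0.11 in control (SD, n = 3 each; adjusted p = 0.0101). Kdm1a, the demethylase LSD1 that CoREST proteins bind, was at 10.70 ± 0.066 in retinoic acid and 10.45 ± 0.080 in control (SD, n = 3 each; adjusted p = 0.035). Neither call was kept after quantile normalization (0.20 and 0.08; adjusted p = 0.107 and 0.428) or cyclic loess (0.17 and 0.07; adjusted p = 0.156 and 0.512). The call of Rcor2 was also lost without control replicate 1 (adjusted p = 0.0675). That of Kdm1a was lost without retinoic acid replicate 2 or 3 (adjusted p = 0.106 and 0.0847) and without control replicate 1, 2 or 3 (adjusted p = 0.0554, 0.0684 and 0.146). Ncor1, a corepressor that COUP-TFs are known to recruit, was at -0.03 (adjusted p = 0.871). Bcl11a, a zinc finger partner, was at -0.17 (adjusted p = 0.21) and Zfpm2, the FOG2 partner of COUP-TFII in heart, at -0.05 (adjusted p = 0.762).

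**Figure D4:**
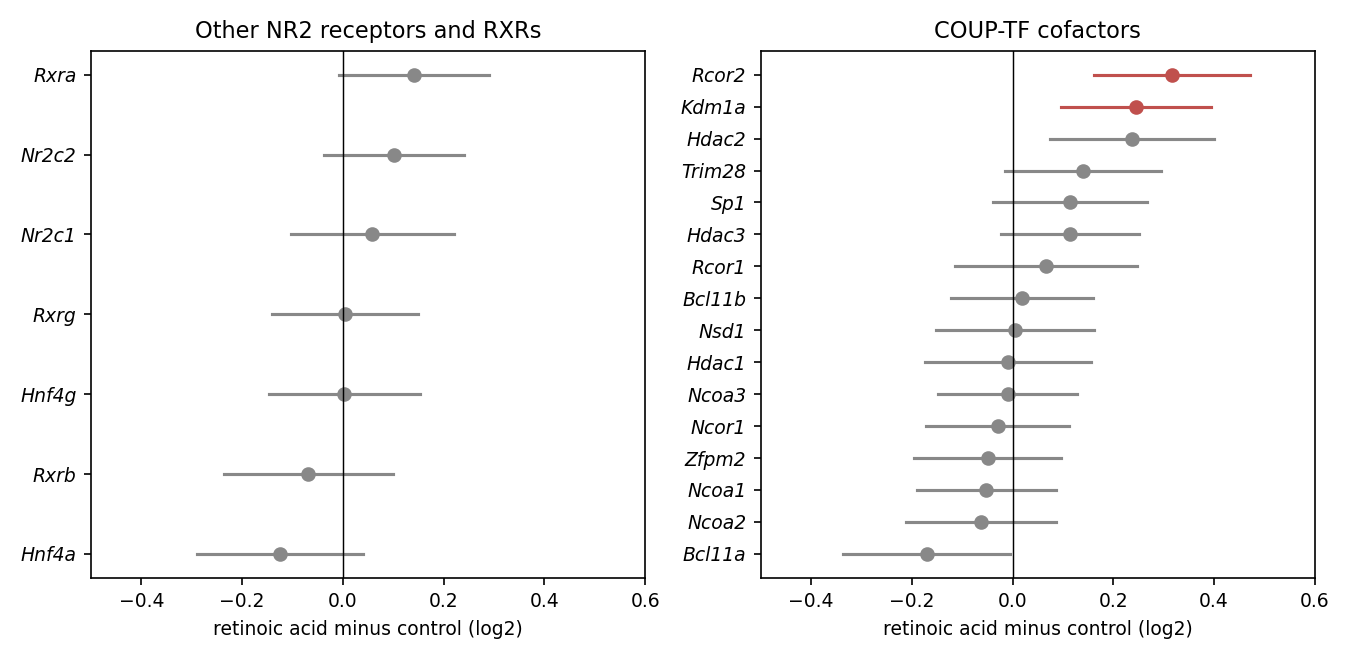
Log2 difference, retinoic acid minus control, with its 95% interval for other NR2 receptors and RXRs (left) and for all but 1 of the measured cofactors of COUP-TFs (right). Only Rcor2 and Kdm1a, in red, had an adjusted p under 0.05.

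Of 34 measured genes linked to COUP-TFs in earlier work, mostly in mouse, 5 rose and 4 fell, where 7.69% of all rows were called higher and 2.06% lower, and the list median was -0.03 (7 fell after quantile normalization or cyclic loess). The list is a general one, holding genes that loss of a COUP-TF raises and genes that it lowers. Those that rose included Egr1, an immediate-early transcription factor, at 12.40 ± 0.061 in retinoic acid and 11.84 ± 0.10 in control, and Sp8, a forebrain patterning factor, at 7.57 ± 0.085 in retinoic acid and 7.06 ± 0.056 in control (SD, n = 3 each). The difference of Egr1 was 0.57, but 0.29 after cyclic loess. Pax6, of eye and forebrain, also rose (0.42 ± 0.074 SE). Tbx5, a factor of heart and forelimb, fell to 8.90 ± 0.13 in retinoic acid, against 9.38 ± 0.041 in control (SD, n = 3 each). Lhx2, of eye field and cortex, fell (-0.47 ± 0.072 SE), as did Isl1, of motor neurons and second heart field (-0.40 ± 0.077 SE). The other called genes, named after their values were seen, were Sox18, an endothelial factor (-0.33), Bmp2 (0.27) and Otx2, a forebrain and midbrain factor (0.28). The call of Bmp2 was lost without retinoic acid replicate 1 (adjusted p = 0.125) or control replicate 1 or 3 (0.0632 and 0.102), and that of Otx2 without retinoic acid replicate 1 or 3 (0.0677 and 0.0893) or control replicate 2 (0.142). When pools were scaled by spike-ins present in equal amounts in both mixes, 40 rows were called higher and 7 lower in all. None of them was a cofactor or a linked gene. The spike-in mean ran from 7.44 to 7.95 in the control pools and from 7.61 to 7.76 in the retinoic acid pools. Scaling carries that spread into every row, and Egr1 stood at 0.60 there without a call (adjusted p = 0.218 in limma).

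Several genes of vessel and neuropilin biology that are tied to COUP-TFII did not pass as the values were deposited. Nrp1 and Nrp2, the neuropilin receptors, were at -0.16 and -0.16 (adjusted p = 0.196 and 0.193). Both were called lower after quantile normalization (-0.25 and -0.27; adjusted p = 0.0134 and 0.00833) and after cyclic loess (-0.26 and -0.29; adjusted p = 0.0109 and 0.00517). The arterial Notch targets Hey1 and Hey2 were at -0.07 and -0.10 (adjusted p = 0.695 and 0.521), and Notch1 at -0.04 (adjusted p = 0.807). Rarb, whose induction by retinoic acid COUP-TFI can modulate, was at 8.82 ± 0.061 in retinoic acid and 8.84 ± 0.14 in control (SD, n = 3 each; adjusted p = 0.895).

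A row of the file next to Nr2f1 also stood lower. LOC684998, a hypothetical protein gene on the plus strand (chromosome 2, 5794091 to 5795024), overlaps the last 14 bases of the minus-strand Nr2f1 row, at its 5′ end. Its log2 expression was 6.86, 6.91 and 6.92 in the retinoic acid pools, against 7.28, 6.95 and 7.26 in the control pools. The groups did not overlap, and control pool 2 stood apart from the other controls, next to the retinoic acid pools, although it was the highest pool for Nr2f1 itself. The difference was -0.27 ± 0.083 (SE, adjusted p = 0.0503 in limma), and it was called lower without control replicate 2 (-0.38, adjusted p = 0.00748), with the replicate block (adjusted p = 0.0292) and under 4 other settings. The 2 other rows with a symbol within 500 kb, Fam172a (0.05) and Pou5f2 (-0.10), were not called (adjusted p = 0.748 and 0.421). No other row with a symbol lay within 500 kb of Nr2f2.

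Nr2f6 lies in a gene-rich stretch with 33 other rows within 500 kb, of which 2 fell and none rose, where 2.06% of all rows were called lower and 7.69% higher, with a median of 0.03. Its nearest neighbours Ocel1, Ushbp1 and Use1 were at -0.10, -0.08 and 0.03, none of them called (adjusted p = 0.515, 0.615 and 0.911). Babam1, a subunit of BRCA1-linked complexes in DNA repair, stood at 9.12 ± 0.10 in retinoic acid and 9.37 ± 0.069 in control (SD, n = 3 each; adjusted p = 0.0379). Its call was lost without any 1 of retinoic acid replicates 2 and 3 and control replicates 1, 2 and 3 (adjusted p = 0.133, 0.0896, 0.0665, 0.156 and 0.0693). Plvap, a diaphragm protein of endothelial cells named after its values were seen, fell (-0.38 ± 0.088 SE, adjusted p = 0.0101), a call lost without retinoic acid replicate 2 (0.0501) or control replicate 2 (0.0657).

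**Figure D5:**
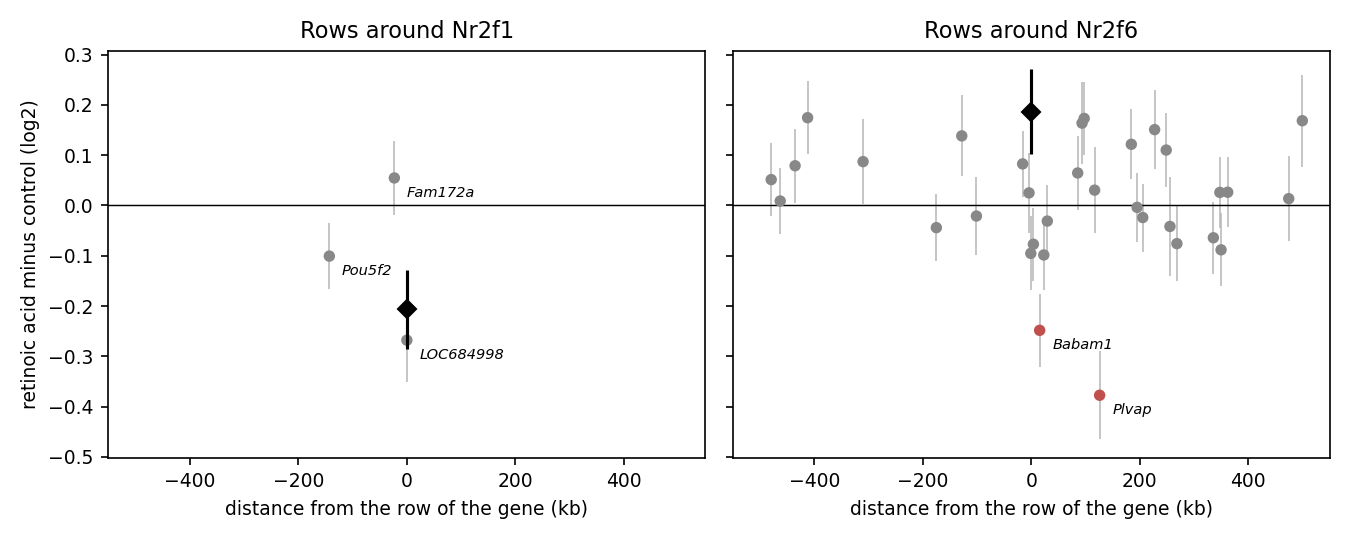
Log2 difference, retinoic acid minus control, with its SE for rows within 500 kb of Nr2f1 (left) and Nr2f6 (right), against the distance in the coordinates of the file. Diamonds are the COUP-TF genes at 0 kb, and the red points, Babam1 and Plvap, had an adjusted p under 0.05.

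The genes with profiles most like each member had the smallest root mean square difference over the 6 pools, each row centred on its mean. They were sought among 9091 rows above the median level, with symbols that begin with LOC, RGD or Mir left out. The nearest to Nr2f1 were Ddx39b, an RNA helicase (0.038 log2 units), Egfl7, an endothelial secreted factor (0.039), and Pdpn, podoplanin (0.041). Egfl7 fell (-0.25 ± 0.073 SE, adjusted p = 0.0361 in limma), a call lost without retinoic acid replicate 1 or 2 (0.119 and 0.0887) or control replicate 2 or 3 (0.167 and 0.0803). Ddx39b and Pdpn stood at -0.20 and -0.21 and were not called, though both were called lower after quantile normalization, after cyclic loess and among rows above the median level, and Pdpn also with the replicate block (adjusted p = 0.0414) and without control replicate 1 (0.0488). Nearest to Nr2f2 were Ppp1r18 (0.012), Rtel1 (0.013) and Slc4a4 (0.022), and nearest to Nr2f6 were Exosc5 (0.032), Igsf9 (0.042) and Zfp566 (0.043), none of them called. These rows were picked for closeness over the same 6 pools, so a difference near that of the member follows from the choice. With 6 pools, close profiles are found among many rows.

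Nr2f2 is made by mesenchyme and venous endothelium as well as by neural cells, so markers of these cells are given beside the COUP-TF values. Of 16 measured mesoderm and mesenchyme markers 9 fell and 2 rose, and their mean log2 level was 8.14 to 8.17 in the retinoic acid pools, against 8.33 to 8.42 in the control pools. Over all rows, 7.69% were called higher and 2.06% lower. Col1a1, a fibrillar collagen, was at -0.71 ± 0.089 (SE). The pair that rose were factors of the somites, Meox1, at 8.16 ± 0.038 in retinoic acid and 7.23 ± 0.064 in control (SD, n = 3 each), with the smallest p of the list, and Tcf15 (0.30 ± 0.070 SE), whose call was lost without control replicate 2 (adjusted p = 0.0575). Of 8 measured endothelial markers 6 fell and none rose, with a mean level of 7.89 to 8.04 in the retinoic acid pools, against 8.39 to 8.46 in the control pools. Cdh5, the endothelial cadherin, was at -0.78 ± 0.072 (SE). The median differences of these lists, -0.37 and -0.54, were larger than those of Nr2f1 and Nr2f2, and their part in the COUP-TF values was not tested.

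Of 8 measured neural progenitor markers 4 rose and none fell (2 rose without retinoic acid replicate 2 or control replicate 1), with a mean level of 8.80 to 8.88 in the retinoic acid pools, against 8.56 to 8.64 in the control pools. Sox2, a neural stem cell factor, was at 8.99 ± 0.12 in retinoic acid and 8.17 ± 0.12 in control (SD, n = 3 each). The list median was 0.19, but 0.0060 after cyclic loess, where Vim stood at -0.04. Of 10 neuronal markers 1 fell and none rose. The fallen gene was Isl1, also counted among the linked genes and also a factor of the second heart field. Of 8 neural crest markers 1 rose and 1 fell. No neural crest marker fell without retinoic acid replicate 2 or 3 or control replicate 1 or 2. For comparison, 7.69% of all rows were called higher and 2.06% lower. With pools scaled by the spike-ins, no list among the mesoderm, endothelial, neural progenitor, neuronal and neural crest markers had more than 1 gene called in a direction. The array values have no 0 from which the absence of a cell type could be read. Sox1 and Sox3, further defining markers of neural progenitors, were listed but had no tested row under those symbols. Which cells of a pool gave the COUP-TF values was not measured.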

How the data were processed

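Per the labels, RNA from 6 flow-sorted pools was labelled by the Affymetrix standard procedure. The authors deposited 1 table of 29656 rows with log2 expression values (4.77 to 14.35); the sources used here do not name the array design, normalization or build, and the submitters' processing notes name limma. The log2 scale was inferred from their range and the log2 fold change column, which equals the difference of group means. Its t and B scores and p-values come from the authors, per the file headers. The series matrix holds identical values, which tied each column to its sample.

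Rows of type main with a symbol were tested in limma 3.58.1 (R 4.3.3; lmFit, eBayes, two-sided, no block, Benjamini-Hochberg over 20258 rows), retinoic acid minus control. Intervals are limma's, at 95%, and are not adjusted. Gaps between members were tested by exact permutation (scipy 1.17.1). The SE of a gene is limma's moderated one and that of a gap is not moderated, so they are not on a like measure. The fit was tested on simulated data. P-values measure the spread between pools only, and precision is limited by having 3 arrays a group.

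The members and gene lists were chosen with earlier results of these data known, and lists took the row of highest mean per symbol. From each list up to 6 called genes by smallest p were to be named, or 2 where none was called, with up to 3 neighbours on each side and 3 like profiles per member. Other genes in the text were chosen after their values were seen, and some list members are counted but not reported here by name. Of the tested rows, 19068 matched a current gene by Entrez identifier. Replicate numbers are shared between the groups, but deviations of same-numbered pools correlated at -0.11, 0.235 and 0.235, so the numbers were not taken to pair the pools. Alternatives covered the block, moderation, level filter, scaling, weights, adjustment and leaving out each pool. The level filter and the adjustment over all main rows repeated limma's moderation on those rows as well as the adjustment. ERCC subgroups came from general knowledge of the product.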

Additional observations from a re-analysis of the deposited data

How the results depend on the processing

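None of the COUP-TF genes changed sign under the 11 settings that can move the difference. Over all 17 the side of the threshold changed once, for Nr2f1 when brighter rows alone were fitted and adjusted for (-0.21, adjusted p = 0.0483 in limma). The series matrix values and the mean of all rows of a symbol repeat the reported fit, so they could not change a call. With the replicate block, which changed no call of a member, Nr2f1 had an adjusted p of 0.0595, Nr2f2 of 0.438 and Nr2f6 of 0.184, and 1876 rows were called higher and 540 lower. Leaving out single pools gave -0.26 to -0.14 for Nr2f1, -0.12 to -0.05 for Nr2f2 and 0.10 to 0.24 for Nr2f6, without a call. Over all rows, 1558 were called higher and 417 lower. These counts were 1084 and 649 after quantile normalization, 877 and 710 after cyclic loess, and 40 and 7 with pools scaled by spike-ins present in equal amounts in both mixes, where none of the COUP-TF genes was called (adjusted p of 1). With that spike-in scaling the differences were -0.17 for Nr2f1, -0.06 for Nr2f2 and 0.22 for Nr2f6. The scaling carries the spread of the spike-ins between pools into every row. Without single pools the counts of called rows ran from 949 to 1261 higher and from 254 to 352 lower. The gaps between members kept their sign after quantile normalization, after cyclic loess and without each pool, though Nr2f1 minus Nr2f2 shrank to -0.061 and -0.050 with these normalizations. Use1, near 0 and never called, was at -0.078 after quantile normalization, -0.097 after cyclic loess and -0.046 to 0.086 without single pools, and Vim was at -0.040 after cyclic loess. Of other uncalled genes near 0, Ncor1 and Rarb were at 0.0075 and 0.0083 with the spike-in scaling, and without single pools Ncor1 ran from -0.060 to 0.0054, Rarb from -0.11 to 0.017 and Hey1 from -0.14 to 0.012. The median of the NR2 and RXR list was below 0 after median centring, quantile normalization and cyclic loess. That of the cofactors was below 0 after quantile normalization and cyclic loess, and also without control replicate 3 (-0.017). That of the linked genes was above 0 after the spike-in shift, and also without retinoic acid replicate 2 (0.0018). After quantile normalization or cyclic loess 7 of the linked genes were called lower. The cause was not tested.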

Other observations

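Of 21 measured genes that respond to retinoic acid or sense it, 5 rose and none fell, with a list median of 0.03. After quantile normalization 1 fell and after cyclic loess 2 fell, and the median lay below 0 in both. In the values as deposited, 7.69% of all rows were called higher and 2.06% lower. Hoxb1, a hindbrain patterning gene, was at 10.12 ± 0.028 in retinoic acid and 9.61 ± 0.084 in control (SD, n = 3 each). Stra6, a retinol transporter gene, was at 9.98 ± 0.047 in retinoic acid and 9.55 ± 0.053 in control, and Cyp26a1, of the main retinoic acid degrading enzyme, at 7.63 ± 0.11 and 7.18 ± 0.12 in retinoic acid and control (SD, n = 3 each). Cdx1, a caudal homeobox gene, also rose (0.31 ± 0.073 SE). The call of Cdx1 was lost without retinoic acid replicate 3 (adjusted p = 0.0657 in limma) or control replicate 2 (0.0572). Whether these changes differ from those of the COUP-TF genes was not tested.

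Among the markers of other tissues, 8 of 9 measured heart genes rose and none fell, with a mean level of 7.40 to 7.51 in the retinoic acid pools, against 6.72 to 6.78 in the control pools. Over all rows, 7.69% were called higher and 2.06% lower. Myl7, an atrial myosin light chain, was at 8.17 ± 0.052 in retinoic acid and 6.35 ± 0.053 in control (SD, n = 3 each). Of 7 surface ectoderm markers 3 rose and none fell, with Grhl3 (0.48 ± 0.072 SE) among them. A single one rose after median centring or cyclic loess, with the adjustment over all main rows, and without retinoic acid replicate 1 or 2 or control replicate 2. Of 7 blood markers 3 rose and 1 fell (none fell without retinoic acid replicate 2 or control replicate 2), and of 9 markers of endoderm and yolk sac none rose and 2 fell, with Afp (-0.33 ± 0.070 SE) among them. The call of the other, Alb, was lost whichever pool was left out (adjusted p from 0.0526 to 0.162 in limma) and with the adjustment over all main rows (0.0589). Among blood markers, the embryonic globin Hbe1 was at 13.97 ± 0.072 in retinoic acid and 13.58 ± 0.12 in control (SD, n = 3 each). Both lie near the highest deposited value, 14.35. The Hbe1 difference of 0.38 was 0.072 after quantile normalization and 0.00057 after cyclic loess, without a call (adjusted p = 0.599 and 0.997 in limma). With pools scaled by the spike-ins 3 heart genes were called higher, and no gene of the other lists named here was called.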
